A study of Mus musculus with 51 samples.

Results

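Genes of interferon signalling and its feedback were followed across every group of a series on HMGN proteins. The set has 8 genes: the transcription factors Stat2, Irf9, Irf7 and Irf1, the RNA sensor gene Ifih1, the ubiquitin-like modifier gene Isg15, and the feedback genes Usp18 and Socs1. Members were taken where the platform annotation gives a probe set to 1 of these genes alone. This held for 7 of the 8 genes and 8 probe sets (2 for Stat2), out of 34945 probe sets with 1 gene symbol and 18193 symbols in all. The probe set listed for Isg15 is shared with Gm9706, so its level is described and not tested.

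RNA was measured on 51 Affymetrix mouse arrays in 17 groups of 3. HMGN proteins bind nucleosomes in the nucleus, and the series asks how removing or adding members of the family changes transcription. Primary embryonic fibroblasts (MEFs) of the C57BL/6 strain carried a knock out of HMGN1, HMGN3 or HMGN5, and each knock out had a wild-type (WT) group of its own. MEFs transformed with SV40 (ATCC line CRL-2214) received HMGN1, HMGN2, HMGN3a, HMGN5 or HMGN5SE, each under the label OE for overexpression, or HMGN1 N2swap, HMGN1 N3swap or an empty vector. MIN6, an insulin-producing tumour line from mouse pancreas, received HMGN1, HMGN3a or an empty vector. The transduced cells were infected with retrovirus, selected with puromycin at 1 µg/ml for 7 days and grown for 24 h without it, in the vector groups too. The protocol names no cloning step, and the transduced cultures are called pools here. The labels give this treatment text for the primary MEFs as well. The labels do not say what was exchanged in the swaps, what SE stands for, the sex or age of the embryos, or whether arrays of 1 group come from different cultures. The p-values therefore measure the spread between these arrays, which may be technical.

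Type I interferons bind a cell-surface receptor whose JAK kinases phosphorylate STAT2 and a partner STAT. Together with IRF9 these form a complex that enters the nucleus and binds the interferon-stimulated response element (ISRE) of target genes. IRF7 amplifies production of type I interferon, and IRF1 drives an overlapping set of genes and is induced through a STAT-binding element called GAS. IFIH1, also known as MDA5, detects double-stranded RNA in the cytoplasm and leads to interferon production. ISG15 is a ubiquitin-like protein joined to other proteins after interferon exposure, USP18 removes it and also blocks signalling at the receptor, and SOCS1 inhibits the JAK kinases.

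Promoter windows from RefSeq (GRCm38.p6), running from 250 bases before to 50 bases after each annotated start, were searched on both strands for the ISRE core GAAANNGAA and the GAS motif TTCNNNGAA. Windows were listed for 7 members, 9 windows in all, and Usp18 had none. The ISRE core was found in 4 of the 9 windows, those of Stat2, Isg15, Ifih1 and Socs1, and in 8.56% of the 32851 windows of the table. The GAS motif was found in 1 window, that of Irf1, and in 8.3% of all windows. No match was found in the windows of Irf7 or Irf9, which says only that these letters are not there. Of the 4 windows shown here with every match in capitals, 3 hold an ISRE core, among them that of Socs1, and that of Irf1 holds the GAS motif. They read 5′ to 3′ on the gene's strand, which is the plus strand for Stat2 (chr10:128270248-128270547) and Irf1 (chr11:53769764-53770063) and the minus strand for Ifih1 (chr2:62646206-62646505) and Socs1 (chr16:10785487-10785786).
Stat2: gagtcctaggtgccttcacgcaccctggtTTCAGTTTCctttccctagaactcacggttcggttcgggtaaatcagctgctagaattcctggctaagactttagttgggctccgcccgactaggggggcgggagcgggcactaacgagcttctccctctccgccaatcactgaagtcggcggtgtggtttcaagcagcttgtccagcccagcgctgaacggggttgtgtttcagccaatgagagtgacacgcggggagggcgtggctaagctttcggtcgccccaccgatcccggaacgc
Irf1: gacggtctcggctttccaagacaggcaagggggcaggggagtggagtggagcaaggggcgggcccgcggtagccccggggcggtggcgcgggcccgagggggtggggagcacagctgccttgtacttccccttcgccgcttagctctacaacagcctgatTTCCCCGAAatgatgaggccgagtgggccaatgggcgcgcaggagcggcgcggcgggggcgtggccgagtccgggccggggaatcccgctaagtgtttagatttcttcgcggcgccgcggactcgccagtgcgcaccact
Ifih1: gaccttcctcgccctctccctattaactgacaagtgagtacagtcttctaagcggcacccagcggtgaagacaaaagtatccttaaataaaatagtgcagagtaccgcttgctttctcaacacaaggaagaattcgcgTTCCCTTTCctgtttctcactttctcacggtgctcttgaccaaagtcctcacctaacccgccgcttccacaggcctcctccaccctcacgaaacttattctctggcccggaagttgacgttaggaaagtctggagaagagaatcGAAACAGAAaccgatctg
Socs1: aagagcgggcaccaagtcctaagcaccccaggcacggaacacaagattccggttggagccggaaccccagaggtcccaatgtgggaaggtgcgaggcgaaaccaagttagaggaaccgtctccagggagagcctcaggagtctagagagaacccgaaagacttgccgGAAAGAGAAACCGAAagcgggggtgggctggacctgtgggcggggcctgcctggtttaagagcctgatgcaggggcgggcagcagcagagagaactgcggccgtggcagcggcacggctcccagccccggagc
In Stat2 the match lay on the opposite strand, 221 to 213 bases before the start. Ifih1 had 1 match on the opposite strand, 112 to 104 bases before the start, and 1 on its own strand at bases 33 to 41 after it. Socs1 had 2 overlapping matches between 83 and 69 bases before the start, and Isg15 had 3 overlapping ones between 78 and 58 bases before it. A match describes the letters and is no evidence that a factor binds there.

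**Figure D1:**
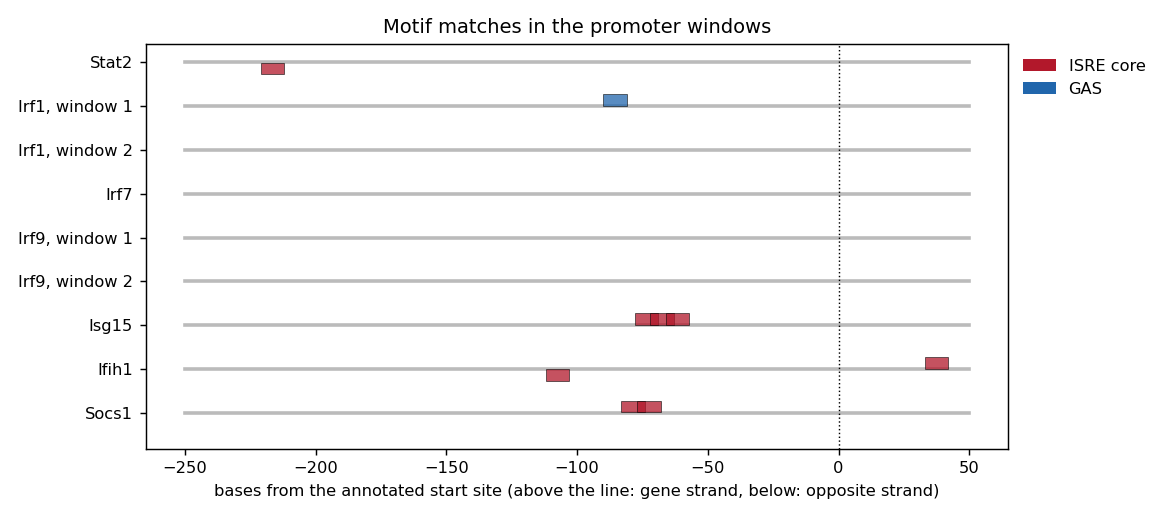
Position of each motif match in bases from the annotated start site, for the 9 promoter windows of 7 genes. Red boxes are ISRE cores (GAAANNGAA) and blue boxes GAS motifs (TTCNNNGAA), drawn above the grey line on the gene's strand and below it on the opposite strand. Matches lie in 5 windows, and those of Isg15 and Socs1 overlap each other.

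Levels are log2 of the deposited intensity and differences are log2 differences with their standard error, 3 arrays per group. A gene was called at a limma p-value adjusted over all genes of the cell type that was below 0.05. Whether the arrays of 2 groups overlap is given as a description of the values. How many of all genes have no overlap was not counted, so a lack of overlap is not a result by itself. The 3 cell types were on different scales: the median intensity of an array was 5.46 to 5.93 for primary MEFs, 18.6 to 19.6 for SV40 MEFs and 55.4 to 57.5 for MIN6. No level is therefore set against one of another cell type. Filter levels for dim probe sets were 1.99 (primary), 3.63 (SV40) and 5.13 (MIN6), and a difference with 1 group below that level is given as a bound ("at least"). All 7 genes passed in both kinds of MEF, and Ifih1 did not pass in MIN6 cells. Probe sets of the interferon genes Ifnb1, Ifna2, Ifna4 and Ifng lay below the filter in all 17 groups. In the knock out checks, the 3 brighter of 4 Hmgn1 probe sets were lower in HMGN1 knock out arrays by 0.67 to 0.89 and both Hmgn3 probe sets were lower in HMGN3 knock out arrays by 1.3 and 1.46, but the Hmgn5 probe set averaged 5.69 in arrays labelled HMGN5 knock out, against 4.97 in HMGN5 WT. The deleted part of each gene is not given, so a probe set outside it checks nothing. The level of each construct in its pool was not checked. Where members were not called, a construct without effect and one made at a low level cannot be told apart. Group means of the fibroblast gene Col1a2 were at least 9.25 in both kinds of MEF, whereas the fibroblast gene Dcn was at 4.19 to 4.41 in SV40 MEFs. The insulin gene Ins2 was at 14.08 to 14.18 in MIN6 cells. Of 12 leukocyte markers 9 passed the filter in primary MEFs and 7 in SV40 MEFs, where group means of Cd14 were at 5.59 to 6.16 and those of Ptprc, at 2.21 to 2.48, were below it. In MIN6 cells 6 passed, with Lyz2 at 6.33 to 6.37. In bulk RNA, more cells with a transcript and more transcript per cell cannot be told apart.

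In SV40 MEFs, 6 of 7 members were higher in the HMGN1 pool than in the vector pool, where 17.4% of the 13469 genes tested were called higher. They had a median difference of 2.19, against -0.0022 over all genes tested. The largest difference was that of Usp18, the protease that removes ISG15. Its level was 10.42, 10.38 and 10.49 in the HMGN1 arrays, against 4.99, 4.72 and 4.49 in the vector arrays, so every HMGN1 array lay far above every vector array. The difference was 5.70 ± 0.18 (51.8-fold, adjusted p = 4.17e-16). Irf7 was at 9.62, 9.54 and 9.77 with HMGN1, against 5.10, 5.05 and 4.78 with vector (4.66 ± 0.14, 25.3-fold, adjusted p = 4.17e-16). The 2 partners of the ISRE-binding complex rose by like amounts. Stat2 was at 6.76, 6.38 and 6.72 with HMGN1, against 4.33, 4.18 and 4.33 with vector, a difference of 2.34 ± 0.24. Irf9 was at 8.94, 8.81 and 8.78 with HMGN1, against 6.63, 6.68 and 6.64 with vector, a difference of 2.19 ± 0.10. Neither group overlapped its control for these genes. The second Stat2 probe set differed by 1.93 ± 0.17 in the same direction.

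The sensor gene Ifih1 stood at 9.30, 9.18 and 9.29 with HMGN1, against 7.45, 7.53 and 7.47 with vector (1.78 ± 0.09, adjusted p = 1.43e-12). Irf1 moved least of the 6, at 8.91, 8.98 and 9.15 with HMGN1, against 8.24, 8.37 and 8.21 with vector (0.74 ± 0.07, adjusted p = 2.7e-08). Socs1, the JAK inhibitor, did not move with them: it was at 5.05, 5.24 and 5.16 with HMGN1, against 5.30, 5.55 and 5.37 with vector. Those groups do not overlap, with the HMGN1 arrays the lower ones, but the difference was not called (-0.26 ± 0.13, adjusted p = 0.14). With only the HMGN1 and vector groups in the fit, Socs1 was called lower (adjusted p = 0.0413). The probe set shared by Isg15 and Gm9706 averaged 10.73 ± 0.06 (SD, n = 3) with HMGN1 and 8.44 ± 0.05 with vector.

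The rest of the pathway was counted in the HMGN1 pool beside the 17.4% of genes called higher there and the 12.1% called lower. Of 8 measured receptors, kinases and other STATs, 2 were higher and 0 lower: Tyk2 (0.26 ± 0.08) and Jak1 (0.25 ± 0.06), both receptor-associated kinases. All 4 genes of ISG15 conjugation rose, led by the E2 enzyme Ube2l6 (1.82 ± 0.12) and the ligase Trim25 (1.47 ± 0.10). Of 9 nucleic acid sensing genes 6 were higher, with the RIG-I-like receptor Dhx58 (3.41 ± 0.21), the endosomal sensor Tlr3 (2.48 ± 0.15) and the RIG-I gene Ddx58 (2.26 ± 0.08) first. Of 5 other IRF genes, Irf2 (0.32 ± 0.07) and Irf8 (0.30 ± 0.10) rose and Irf5 fell (-0.46 ± 0.08). Of 21 interferon-induced effectors 20 were higher, up to Oas1a (4.63 ± 0.10), an activator of RNase L, and Cxcl10 was not called (-0.11 ± 0.08). Among 10 other feedback genes 3 were higher, led by Socs2 (1.05 ± 0.09) and Socs3 (0.44 ± 0.12), and 1 was lower, Pias2 (-0.28 ± 0.09). Leukocyte markers summed to an intensity of 196 to 209 with HMGN1 and 196 to 212 with vector, and their part in the result was not tested.

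**Figure D2:**
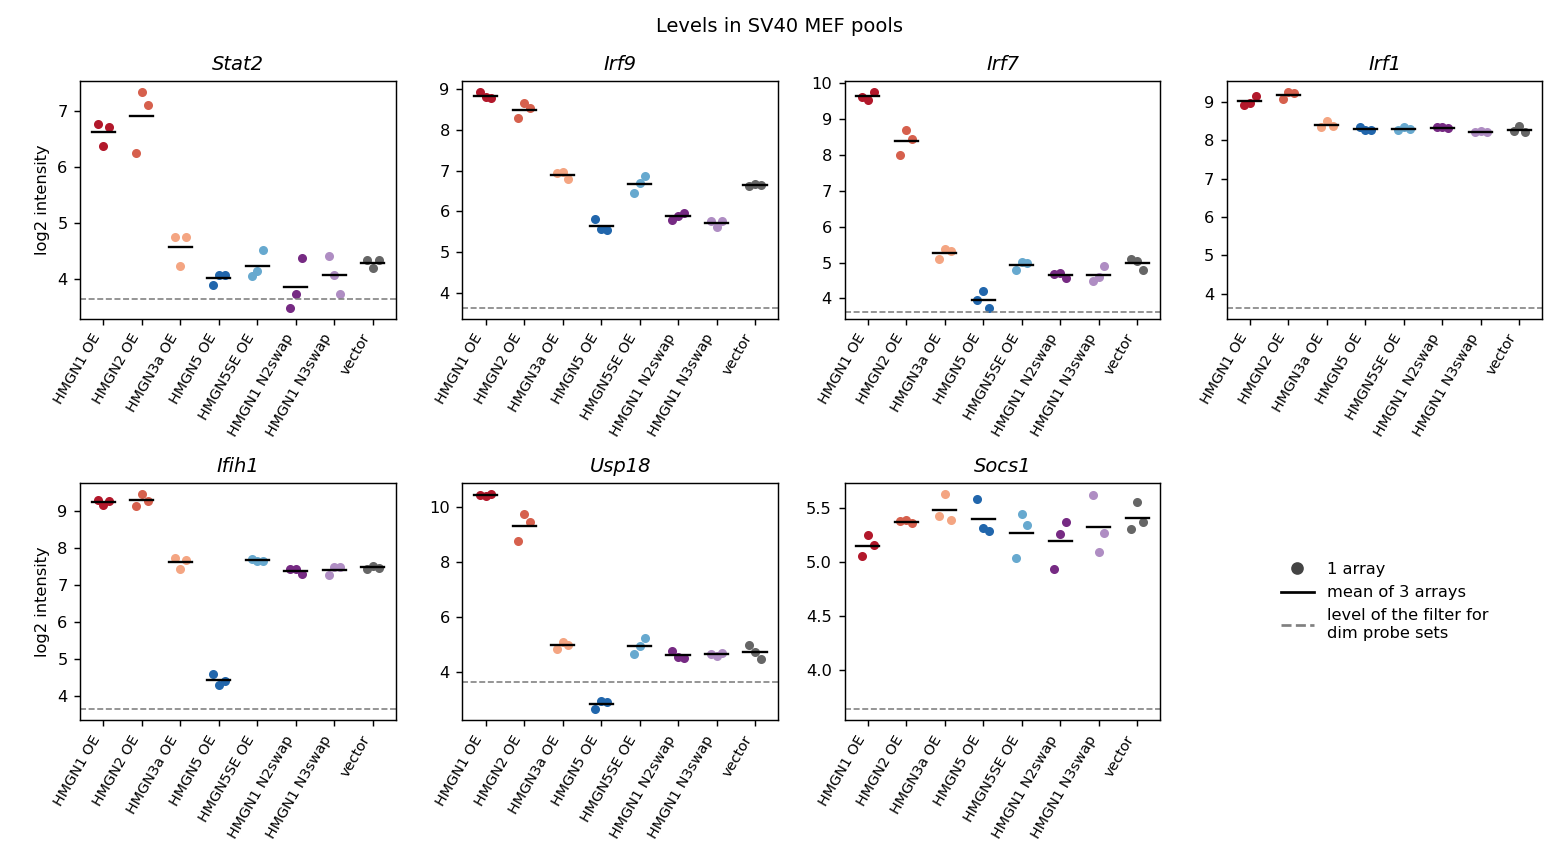
Log2 intensity of the 7 members in the 8 SV40 MEF groups. Each point is 1 array, black bars are means of 3 arrays, and the dashed line marks the filter level of 3.63. The HMGN1 and HMGN2 pools stand above all other groups for every gene but Socs1, and the HMGN5 pool is lowest for Ifih1, Usp18 and Irf7.

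The HMGN2 pool had 6 members higher than vector, where 18.7% of genes were called higher, with a median over the 7 members of 1.84. Usp18 was at 8.76, 9.75 and 9.44 with HMGN2, against 4.99, 4.72 and 4.49 with vector (4.58 ± 0.18). Irf7 was at 8.01, 8.69 and 8.46 with HMGN2, against 5.10, 5.05 and 4.78 with vector (3.41 ± 0.14). Both genes had their lowest HMGN2 value in replicate 1 and their highest in replicate 2, and so did Stat2, Irf9, Irf1 and Ifih1. Stat2 was at 6.25, 7.34 and 7.11 with HMGN2 (2.62 ± 0.24 over vector) and Irf9 at 8.29, 8.65 and 8.53 (1.84 ± 0.10). Ifih1 was at 9.15, 9.48 and 9.27 with HMGN2 (1.82 ± 0.09 over vector) and Irf1 at 9.08, 9.26 and 9.23 (0.92 ± 0.07). All of these arrays lay above all vector arrays. Socs1 was at 5.38, 5.39 and 5.35 with HMGN2, within the range of the vector arrays, and was not called (-0.03 ± 0.13). The shared Isg15 and Gm9706 probe set averaged 10.49 ± 0.24 with HMGN2 and 8.44 ± 0.05 with vector (SD, n = 3 each).

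The HMGN1 and HMGN2 pools share their vector arrays, so their difference was tested directly. Compared with the HMGN1 pool, the HMGN2 pool had 3 members lower, where 26.2% of genes were called lower, and 1 member higher, where 14.9% were called higher. Irf7 was lower by -1.25 ± 0.14 (adjusted p = 4.24e-07) and Usp18 by -1.11 ± 0.18 (adjusted p = 3e-05), with no overlap between the pools. Irf9 was lower by -0.35 ± 0.10 (adjusted p = 0.00691) and Irf1 higher by 0.18 ± 0.07 (adjusted p = 0.0364), and the Irf1 arrays overlap. Neither Stat2 (0.28 ± 0.24) nor Ifih1 (0.04 ± 0.09) was called. Socs1 was higher by 0.22 and called with only these groups in the fit (adjusted p = 0.0247). These calls rest in part on single arrays. Without HMGN2 replicate 1 the Irf9 call was lost (-0.25, adjusted p = 0.0598) and Stat2 was called (0.60, adjusted p = 0.0348), and without HMGN1 replicate 1 or 2 or HMGN2 replicate 2 or 3 the Irf1 call was lost. The fibroblast markers also differed, with 6 of 8 higher in the HMGN2 pool than in the HMGN1 pool. Their summed intensity was 15212 to 16641 with HMGN2, 8187 to 8503 with HMGN1 and 7757 to 8035 with vector, and their part in the members' differences was not tested. The Actb difference between 3′ and 5′ control probe sets, a measure of RNA quality, was 0.0072 to 0.196 with HMGN2, against 0.204 to 0.342 with HMGN1 and 0.233 to 0.29 with vector. With it as a covariate 6 members were still called against vector, while 3 were called against HMGN1, where the Irf1 call was lost (adjusted p = 0.0794).

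The HMGN5 pool went the other way for 4 of the 7 members, against a background of 20.8% of genes called lower. Ifih1 fell most. It was at 4.59, 4.29 and 4.39 with HMGN5, against 7.45, 7.53 and 7.47 with vector, a difference of -3.06 ± 0.09 (8.34-fold lower, adjusted p = 2.07e-17). Usp18 was at 2.64, 2.96 and 2.93 with HMGN5, against 4.99, 4.72 and 4.49 with vector. All 3 HMGN5 values lie below the filter level, so Usp18 was lower by at least 1.10 (the fitted difference was -1.89 ± 0.18, adjusted p = 1.09e-08). Irf7 was at 3.95, 4.20 and 3.74 with HMGN5, against 5.10, 5.05 and 4.78 with vector (-1.01 ± 0.14, adjusted p = 4.97e-06). Irf9 was at 5.81, 5.58 and 5.54 with HMGN5, against 6.63, 6.68 and 6.64 with vector (-1.01 ± 0.10, adjusted p = 2.35e-08).

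The other 3 members were not called with HMGN5. Stat2, the partner of IRF9, was at 3.89, 4.06 and 4.08 with HMGN5, against 4.33, 4.18 and 4.33 with vector (-0.27 ± 0.24, adjusted p = 0.398). The Stat2 arrays do not overlap, and with only the HMGN5 and vector groups in the fit the call was made (adjusted p = 0.0158). Irf1 was at 8.34, 8.26 and 8.27 with HMGN5, against 8.24, 8.37 and 8.21 with vector (0.02 ± 0.07). Socs1 was at 5.58, 5.31 and 5.28 with HMGN5, against 5.30, 5.55 and 5.37 with vector (-0.01 ± 0.13). For Irf1 and Socs1 the groups overlap. The shared Isg15 and Gm9706 probe set averaged 5.42 ± 0.05 with HMGN5 and 8.44 ± 0.05 with vector (SD, n = 3 each).

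In the HMGN5 pool, 5 of 8 receptors, kinases and other STATs were higher than in vector and 1 was lower, where 20.7% of all genes were called higher. The interferon-gamma receptor genes Ifngr1 (0.61 ± 0.11) and Ifngr2 (0.60 ± 0.14) rose most and the kinase gene Jak2 fell (-0.51 ± 0.07). Nucleic acid sensing genes had 5 of 9 lower and 0 higher, with Sting1 (-0.97 ± 0.08) and Cgas (-0.97 ± 0.09), which encode the DNA sensing pair, and Dhx58 (-0.83 ± 0.21) first. Of 21 interferon-induced effectors 14 were lower, among them Oasl2 (-4.34 ± 0.14), Ifit1 (-3.78 ± 0.13) and Rtp4 (-2.80 ± 0.17), and 1 was higher, the peptide transporter gene Tap1 (0.48), which was named after its value was seen. Among other feedback genes 4 of 10 were lower and 2 higher, with Socs2 lower (-0.67 ± 0.09) and Socs3 higher (0.59 ± 0.12). Fibroblast markers summed to 16933 to 17603 with HMGN5, close to the HMGN2 pool, and to 7757 to 8035 with vector, and their part was not tested.

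Set directly against the HMGN2 pool, the HMGN5 pool had 6 of 7 members lower, where 21.5% of genes were called lower. Of the 8 fibroblast markers, 3 were higher and 3 lower in this contrast, where 3745 of the 13469 genes tested were called higher. The HMGN5 pool was lower by -4.88 ± 0.09 for Ifih1, -4.42 ± 0.14 for Irf7, -2.89 ± 0.24 for Stat2, -2.85 ± 0.10 for Irf9 and -0.90 ± 0.07 for Irf1. Usp18 was lower by at least 5.69 with HMGN5. No member but Socs1 (0.02 ± 0.13) had overlapping arrays.

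With the HMGN5SE construct, 0 of 7 members were called by limma against vector, where 0.0148% of genes were called in either direction. None of the 7 had an unadjusted p below 0.05 (0). Ifih1 was at 7.70, 7.64 and 7.66 with HMGN5SE, against 7.45, 7.53 and 7.47 with vector (0.18 ± 0.09). These arrays do not overlap, but the difference was not called. Set against HMGN5 itself, HMGN5SE had 4 members higher, where 22.2% of genes were called higher. Ifih1 was higher by 3.24 ± 0.09, Usp18 by at least 1.32, Irf9 by 1.03 ± 0.10 and Irf7 by 0.97 ± 0.14. Stat2 (0.22 ± 0.24), Irf1 (0.01 ± 0.07) and Socs1 (-0.12 ± 0.13) were not called. This contrast shares the HMGN5 arrays with that of HMGN5 against vector. The fibroblast markers were lower in this contrast for 5 of 8 genes, where 2668 of the 13469 genes tested were called lower. Their summed intensity was 7466 to 7981 with HMGN5SE and 16933 to 17603 with HMGN5, and their part was not tested.

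The HMGN1 swap constructs were set directly against HMGN1, with the level of each construct in its pool not checked. N2swap had 6 of 7 members lower than HMGN1, where 26.1% of genes were called lower, and N3swap also had 6, where 28.2% were. Usp18 was at 4.75, 4.56 and 4.51 with N2swap and 4.65, 4.60 and 4.69 with N3swap, against 10.42, 10.38 and 10.49 with HMGN1. Irf7 was at 4.69, 4.72 and 4.57 with N2swap and 4.47, 4.59 and 4.89 with N3swap, against 9.62, 9.54 and 9.77 with HMGN1. Both genes were thus near the vector level in all 6 swap arrays. Against HMGN1, the N2swap differences were -5.82 ± 0.18 for Usp18, -4.98 ± 0.14 for Irf7, -2.96 ± 0.10 for Irf9, -2.77 ± 0.24 for Stat2, -1.86 ± 0.09 for Ifih1 and -0.68 ± 0.07 for Irf1. The N3swap differences from HMGN1 ran from -5.78 ± 0.18 for Usp18 to -0.79 ± 0.07 for Irf1. Against HMGN2, N2swap was also lower for 6 members, where 22.5% of genes were called lower, from -4.71 ± 0.18 for Usp18 to -0.86 ± 0.07 for Irf1. Fibroblast markers were lower too in that contrast for 6 of 8 genes, with a summed intensity of 8819 to 10858 with N2swap and 15212 to 16641 with HMGN2, and their part was not tested.

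Against vector, 1 member was called with each swap, Irf9, and it was lower. Irf9 was at 5.80, 5.87 and 5.97 with N2swap and 5.76, 5.60 and 5.76 with N3swap, against 6.63, 6.68 and 6.64 with vector. All swap arrays lay below all vector arrays. The difference was -0.77 ± 0.10 for N2swap (adjusted p = 2.97e-06), where 19.3% of genes were called lower, and -0.94 ± 0.10 for N3swap (adjusted p = 2.12e-07), where 20% were. Irf7 missed the threshold in both (-0.32 ± 0.14 with adjusted p = 0.0875 for N2swap, -0.33 ± 0.14 with adjusted p = 0.0797 for N3swap). It was called for N2swap with only those groups in the fit (adjusted p = 0.0443) and for both without vector replicate 3 (-0.42 for each), and for N3swap also without N3swap replicate 3 (-0.45), while Stat2 was called for N2swap without N2swap replicate 3 (-0.68). Usp18 (-0.13 ± 0.18 and -0.09 ± 0.18) and Ifih1 (-0.09 ± 0.09 and -0.06 ± 0.09) were not called with N2swap or N3swap. The shared Isg15 and Gm9706 probe set averaged 7.70 ± 0.27 with N2swap, 7.85 ± 0.21 with N3swap and 8.44 ± 0.05 with vector.

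The swap arrays stood apart in the same measure of RNA quality, in the direction opposite to the HMGN2 arrays. The Actb difference was 0.39 to 0.79 with N2swap and 0.47 to 0.77 with N3swap, against 0.23 to 0.29 with vector. With that difference as a covariate every swap call named here was kept, and Socs1 became higher than in the HMGN1 pool (0.39 for N2swap, 0.49 for N3swap). Of the 6 swap arrays, 3 correlated best with an array of the other swap group.

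With HMGN3a in SV40 MEFs, limma called 0 of 7 members, where 0.0297% of genes were called in either direction, and 1 member had an unadjusted p below 0.05. Irf9 was at 6.94, 6.96 and 6.79 with HMGN3a, against 6.63, 6.68 and 6.64 with vector (0.25 ± 0.10, adjusted p = 0.384). Irf7 was at 5.11, 5.37 and 5.31 with HMGN3a, against 5.10, 5.05 and 4.78 with vector (0.29 ± 0.14, adjusted p = 0.481). Both sets of HMGN3a arrays lay above the vector arrays without passing the test. Usp18 (0.24 ± 0.18), Stat2 (0.29 ± 0.24), Ifih1 (0.14 ± 0.09), Irf1 (0.13 ± 0.07) and Socs1 (0.07 ± 0.13) had overlapping arrays.

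**Figure D3:**
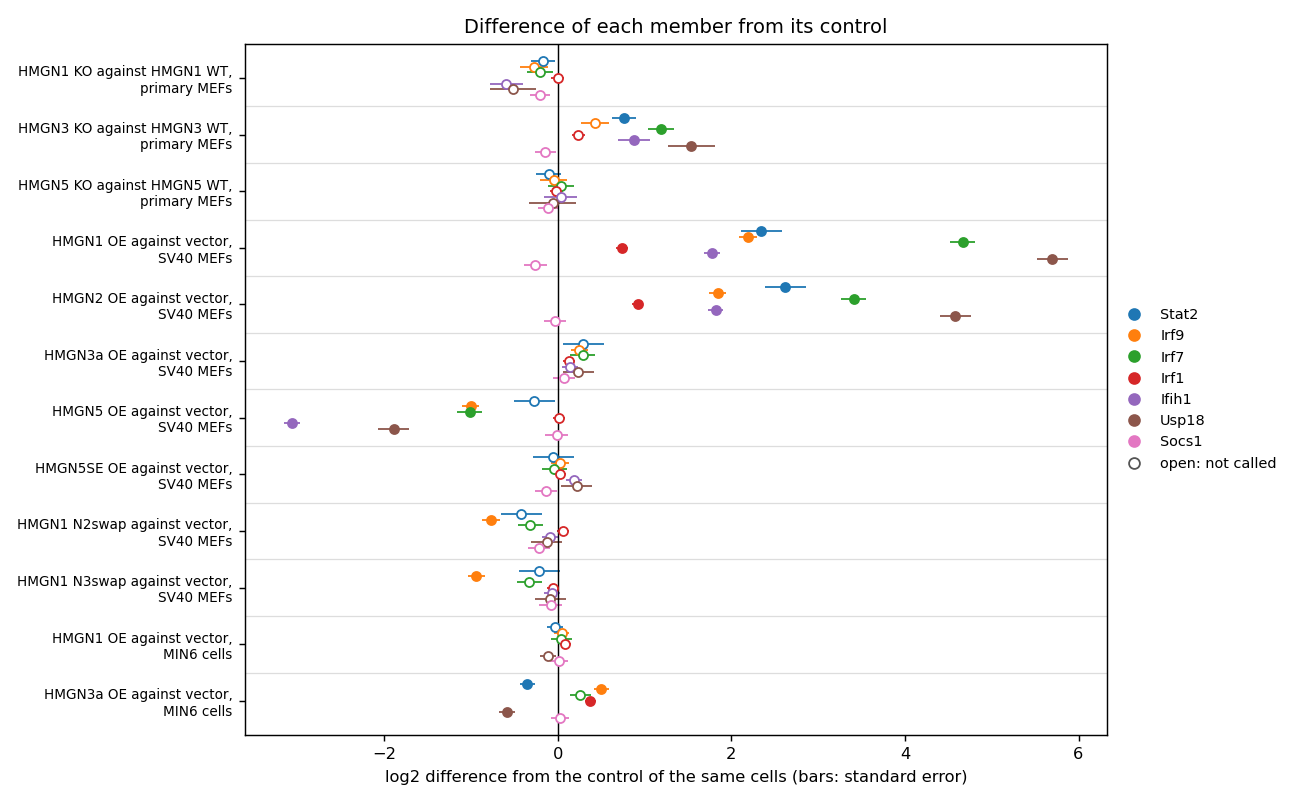
Log2 difference of each member from its control in the 12 comparisons with a control, with standard errors as bars. Filled points were called at an adjusted p below 0.05 and open points were not. Usp18 and Irf7 reach 5.70 and 4.66 with HMGN1 in SV40 MEFs, Ifih1 reaches -3.06 with HMGN5, and Socs1 is open in every row.

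In primary MEFs, 4 of 7 members were higher in HMGN3 knock out arrays than in their WT arrays, where 0.483% of the 13674 genes tested were called higher. Their median over the 7 was 0.76, against -0.0068 over all genes tested. Usp18 was at 8.19, 8.35 and 8.32 in HMGN3 knock out arrays, against 6.75, 6.75 and 6.76 in HMGN3 WT (1.54 ± 0.27, 2.9-fold, adjusted p = 0.0131). Irf7 was at 6.53, 6.82 and 6.71 in HMGN3 knock out arrays, against 5.51, 5.54 and 5.43 in HMGN3 WT (1.19 ± 0.15, 2.28-fold, adjusted p = 0.000851). The knock out and WT arrays are well apart for both. Ifih1 was at 7.25, 7.21 and 7.22 in HMGN3 knock out arrays, against 6.42, 6.36 and 6.28 in HMGN3 WT (0.88 ± 0.19, adjusted p = 0.0494). Stat2 was at 3.90, 4.15 and 4.16 in HMGN3 knock out arrays, against 3.38, 3.25 and 3.31 in HMGN3 WT (0.76 ± 0.14, adjusted p = 0.0166). Its other probe set differed by 0.81 ± 0.14. That other probe set is the brighter one, used for Stat2, in SV40 MEFs and MIN6 cells.

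The remaining 3 members were not called in the HMGN3 knock out. Irf9 was at 6.17, 6.08 and 6.08 in knock out arrays, against 5.82, 5.63 and 5.60 in HMGN3 WT (0.43 ± 0.16, adjusted p = 0.401). Irf1 was at 5.73, 5.88 and 5.80 in knock out arrays, against 5.50, 5.56 and 5.64 in HMGN3 WT (0.24 ± 0.07, adjusted p = 0.264). In both genes every knock out array lay above every WT array, although the groups were close, and with those groups alone in the fit Irf9 was called (adjusted p = 0.0479). Socs1 was at 2.89, 2.67 and 2.75 in knock out arrays, against 2.89, 2.75 and 3.09 in HMGN3 WT (-0.14 ± 0.12), with overlap. The shared Isg15 and Gm9706 probe set averaged 9.28 ± 0.10 in HMGN3 knock out arrays and 7.90 ± 0.03 in HMGN3 WT (SD, n = 3 each).

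These calls had little room. Leaving out any of HMGN3 knock out replicates 2 and 3 or HMGN3 WT replicates 1, 2 and 3 left 1 member called, Irf7, with differences of 1.5 to 1.54 for Usp18 and adjusted p-values of 0.0561 to 0.0767 for it. Ifih1 was not called without a filter on dim probe sets (adjusted p = 0.0569), with every probe set fitted (adjusted p = 0.0541) or without any 1 of the 6 arrays. In the rest of the pathway, 16 of 21 interferon-induced effectors rose, with Ifit3 (1.88 ± 0.33), Iigp1 (1.76 ± 0.32) and Gbp3 (1.71 ± 0.24) first, and 0 fell. Nucleic acid sensing genes had 3 of 9 higher: Zbp1 (1.00 ± 0.11), Dhx58 (0.90 ± 0.16) and Ddx58 (0.69 ± 0.10). The ISG15 ligase gene Trim25 rose (0.31 ± 0.06), 1 of 4 genes of ISG15 conjugation. By limma, 0 of 8 receptors, kinases and other STATs, 0 of 5 other IRF genes and 0 of 10 other feedback genes were called, with 1, 0 and 0 of them at an unadjusted p below 0.05. Leukocyte markers summed to 974 to 1544 in HMGN3 knock out arrays and to 1116 to 1209 in HMGN3 WT, and 0 of 9 were called or had an unadjusted p below 0.05 by limma.

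**Figure D4:**
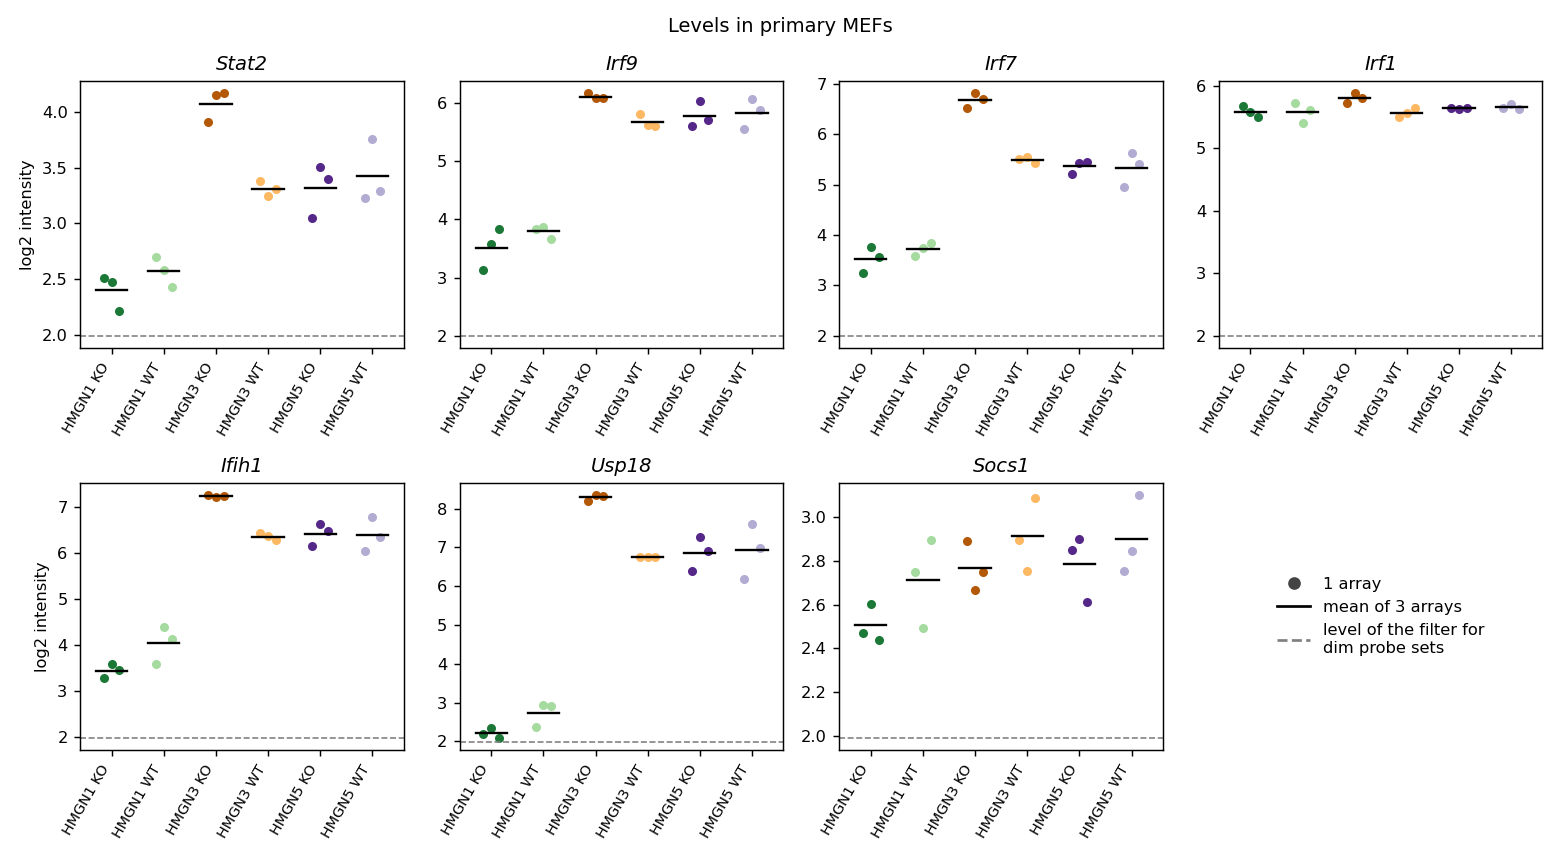
Log2 intensity of the 7 members in the 6 groups of primary MEFs. Each point is 1 array, black bars are means of 3 arrays, and the dashed line marks the filter level of 1.99. HMGN3 knock out arrays are the highest for every gene but Socs1, and both HMGN1 groups are the lowest for Usp18, Ifih1, Irf7, Irf9 and Stat2.

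In the HMGN1 knock out, limma called 0 of 7 members against HMGN1 WT, where 0.439% of genes were called in either direction, and 1 member, Ifih1, had an unadjusted p below 0.05. Ifih1 was at 3.28, 3.59 and 3.46 in HMGN1 knock out arrays, against 3.58, 4.39 and 4.14 in HMGN1 WT (-0.59 ± 0.19, adjusted p = 0.15). Usp18 was at 2.20, 2.35 and 2.09 in HMGN1 knock out arrays, against 2.36, 2.93 and 2.90 in HMGN1 WT (-0.52 ± 0.27, adjusted p = 0.372). The Usp18 arrays do not overlap, and all lie close to the filter level of 1.99. The other differences were -0.28 ± 0.16 for Irf9, -0.21 ± 0.15 for Irf7, -0.21 ± 0.12 for Socs1, -0.17 ± 0.14 for Stat2 and 0.00 ± 0.07 for Irf1. Of 8 receptors, kinases and other STATs, 1 had an unadjusted p below 0.05 by limma, where 2121 of the 13674 genes tested did. It was Ifnar1, a chain of the type I interferon receptor, lower in HMGN1 knock out arrays than in HMGN1 WT (-0.52 ± 0.08). Its position relative to the targeted Hmgn1 gene was not examined, and the cause was not tested. Leukocyte markers summed to 352.2 to 485.4 in HMGN1 knock out arrays and to 484.5 to 516.2 in HMGN1 WT. Of 9 tested, 0 had an unadjusted p below 0.05 by limma, and their part was not tested.

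In arrays labelled HMGN5 knock out, limma called 0 of 7 members against HMGN5 WT, where 0.0731% of genes were called in either direction, and 0 members had an unadjusted p below 0.05. Usp18 was at 6.40, 7.27 and 6.91 in the arrays labelled HMGN5 knock out, against 6.17, 7.60 and 6.99 in HMGN5 WT (-0.06 ± 0.27). The spread within these groups was wide: the SD of Usp18 was 0.44 in the knock out and 0.71 in the WT group, against 0.0056 in HMGN3 WT. Replicate 1 was lowest and replicate 2 highest in both groups for Stat2, Usp18, Irf9 and Ifih1 and for the probe set shared by Isg15 and Gm9706. Ifih1 was at 6.14, 6.62 and 6.47 in the arrays labelled HMGN5 knock out, against 6.03, 6.76 and 6.33 in HMGN5 WT (0.03 ± 0.19). The other 5 differences ran from -0.11 ± 0.12 for Socs1 to 0.03 ± 0.15 for Irf7. Leukocyte markers summed to 381 to 1727 in the arrays labelled HMGN5 knock out and to 547 to 1001 in HMGN5 WT. Of 9 tested, 0 had an unadjusted p below 0.05 by limma, and their part was not tested.

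The knock out effects were then compared with each other. The HMGN3 effect exceeded the HMGN1 effect in 4 members, where 0.388% of genes were called higher: Usp18 by 2.05 ± 0.38 (adjusted p = 0.0231), Ifih1 by 1.47 ± 0.27 (adjusted p = 0.0206), Irf7 by 1.40 ± 0.21 (adjusted p = 0.00643) and Stat2 by 0.93 ± 0.20 (adjusted p = 0.0496). It exceeded the HMGN5 effect in 1 member, Irf7, by 1.16 ± 0.21 (adjusted p = 0.0263), where 0.293% of genes were called higher. Usp18 (1.60 ± 0.38, adjusted p = 0.118) and Stat2 (0.87 ± 0.20, adjusted p = 0.09) missed the threshold there. Between the HMGN5 and HMGN1 effects limma called 0 members, where 0.161% of genes were called in either direction, and 1 had an unadjusted p below 0.05. The HMGN1 effect on Usp18 and Stat2 was measured near the filter level of 1.99. Means in HMGN1 knock out and WT arrays were 2.21 and 2.73 for Usp18 and 2.40 and 2.57 for Stat2. Against the HMGN1 effect, leaving out any 1 array of HMGN1 knock out, HMGN1 WT or HMGN3 WT, or HMGN3 knock out replicate 2 or 3, ended the Stat2 call (adjusted p = 0.06 to 0.143). The count fell to 1 or 2 members, Irf7 among them, without HMGN1 knock out replicate 1 or 3, HMGN1 WT replicate 2 or 3, HMGN3 knock out replicate 2 or 3 or any HMGN3 WT array. The Irf7 call against HMGN5 was lost (0 members) without HMGN3 knock out replicate 2 or 3, any HMGN3 WT array, replicate 1 or 3 labelled HMGN5 knock out, or HMGN5 WT replicates 2 or 3, and 3 members were called without replicate 2 labelled HMGN5 knock out or HMGN5 WT replicate 1.

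The 3 WT groups were not alike in these genes, although all are labelled C57BL/6. HMGN3 WT had 5 of 7 members higher than HMGN1 WT, where 11.1% of genes were called higher, and HMGN5 WT also had 5, where 4.71% were. Usp18 was at 6.75, 6.75 and 6.76 in HMGN3 WT and 6.17, 7.60 and 6.99 in HMGN5 WT, against 2.36, 2.93 and 2.90 in HMGN1 WT. That is 4.02 ± 0.27 for HMGN3 WT (16.2-fold) and 4.19 ± 0.27 for HMGN5 WT (18.3-fold), larger than the HMGN3 knock out effect on the same gene. Ifih1 was higher by 2.31 ± 0.19 in HMGN3 WT and 2.34 ± 0.19 in HMGN5 WT, Irf9 by 1.89 ± 0.16 and 2.04 ± 0.16, Irf7 by 1.77 ± 0.15 and 1.60 ± 0.15, and Stat2 by 0.74 ± 0.14 and 0.85 ± 0.14. Irf1 and Socs1 were not called in either contrast. Between HMGN5 WT and HMGN3 WT, limma called 0 members, where 17.2% of genes were called in either direction, and 0 had an unadjusted p below 0.05.

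Other features moved with those WT differences. An index of Y-linked RNA, scaled so that the lowest primary array is 0 and the highest is 1, was 0.82 to 0.959 in HMGN3 WT and 0.925 to 1 in HMGN5 WT, against 0 to 0.0053 in HMGN1 WT. With this index as a covariate Stat2 was not called (0.47 for HMGN3 WT, adjusted p = 0.148, and 0.55 for HMGN5 WT, adjusted p = 0.209), and the calls of the other 4 genes were kept. Leukocyte markers summed to 1116 to 1209 in HMGN3 WT and 547 to 1001 in HMGN5 WT, against 485 to 516 in HMGN1 WT, and 5 of 9 were called higher in HMGN3 WT and 0 of 9 in HMGN5 WT. Epithelial markers were higher in HMGN3 WT for 3 of 3 genes tested and in HMGN5 WT for 0 of 3, and the 1 endothelial marker tested was higher in HMGN3 WT (0.64) and not called in HMGN5 WT (0.40). Of 8 fibroblast markers 3 were higher in HMGN3 WT, and 2 were higher and 1 lower in HMGN5 WT. The part of these markers in the members' levels was not tested. The index of Y-linked RNA also varied within groups, at 0.0081 to 0.748 in HMGN1 knock out arrays and 0.0118 to 0.969 in the arrays labelled HMGN5 knock out. In replicates 1, 2 and 3 of the latter it was 0.0118, 0.969 and 0.422, the same order as Usp18 there. In HMGN5 WT it was 0.925, 0.992 and 1, with replicate 3 the highest. With this index as a covariate no member's call changed in the knock out comparisons or in the differences of their effects. Against HMGN1 WT, 20 of 21 interferon-induced effectors were higher in HMGN3 WT and 16 in HMGN5 WT.

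In MIN6 cells 6 of the 7 members could be tested. With HMGN3a 2 of them were higher than with vector, where 14.5% of genes were called higher, and 2 were lower, where 19.5% were called lower. Irf9 was at 7.25, 6.99 and 7.39 with HMGN3a, against 6.72, 6.76 and 6.66 with vector (0.50 ± 0.09, adjusted p = 0.00161). Irf1 was at 8.998, 8.97 and 8.89 with HMGN3a, against 8.61, 8.66 and 8.48 with vector (0.37 ± 0.06, adjusted p = 0.00122). The feedback gene Usp18 and Stat2 went down instead. Usp18 was at 8.46, 8.73 and 8.61 with HMGN3a, against 9.08, 9.13 and 9.34 with vector (-0.58 ± 0.09, adjusted p = 0.000835). Stat2 was at 6.29, 6.22 and 5.95 with HMGN3a, against 6.42, 6.51 and 6.58 with vector (-0.35 ± 0.09, adjusted p = 0.00976). None of these 4 genes had overlapping arrays, but the second Stat2 probe set, at 5.86, 5.97 and 6.16 with HMGN3a and 6.08, 6.27 and 5.99 with vector, overlapped and was not called (-0.12 ± 0.10).

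Irf7 lay near the MIN6 filter level, at 5.54, 5.23 and 5.31 with HMGN3a, against 4.94, 5.13 and 5.23 with vector, and was not called (adjusted p = 0.122). Socs1 was at 6.26, 6.19 and 6.03 with HMGN3a, against 6.18, 6.19 and 6.04 with vector (0.02 ± 0.10). Ifih1 averaged 4.73 to 5.05 in the 3 MIN6 groups, below the filter, and the shared Isg15 and Gm9706 probe set averaged 5.81 ± 0.01 with HMGN3a and 5.82 ± 0.05 with vector (SD, n = 3 each). Of 19 interferon-induced effectors 7 were higher with HMGN3a and 3 lower, with Oasl2 (1.19 ± 0.12), the GTPase gene Mx1 (1.15 ± 0.09) and the chemokine gene Cxcl10 (0.76 ± 0.08) first. Other feedback genes had 4 of 10 lower and 1 higher: Cish rose (0.89 ± 0.08), and Socs3 (-0.66 ± 0.11) and Socs2 (-0.59 ± 0.11) fell, all of the same family as Socs1. The receptor gene Ifngr1 (-0.65 ± 0.08) and the kinase gene Jak1 (-0.40 ± 0.08) fell as well. Beta cell markers summed to 54385 to 55296 with HMGN3a and 52029 to 54515 with vector, and epithelial markers to 5992 to 6482 and 4252 to 4436, and their part was not tested.

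HMGN1 gave 0 of 6 members called by limma in MIN6 cells, where 1.15% of genes were called in either direction, and 0 members had an unadjusted p below 0.05. Usp18 was at 9.08, 8.96 and 9.18 with HMGN1, against 9.08, 9.13 and 9.34 with vector (-0.11 ± 0.09). Irf9 was at 6.72, 6.78 and 6.77 with HMGN1, against 6.72, 6.76 and 6.66 with vector (0.04 ± 0.09). All 6 members had overlapping arrays, and the effects in MIN6 cells and SV40 MEFs were not tested against each other because the cell types are on different scales.

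**Figure D5:**
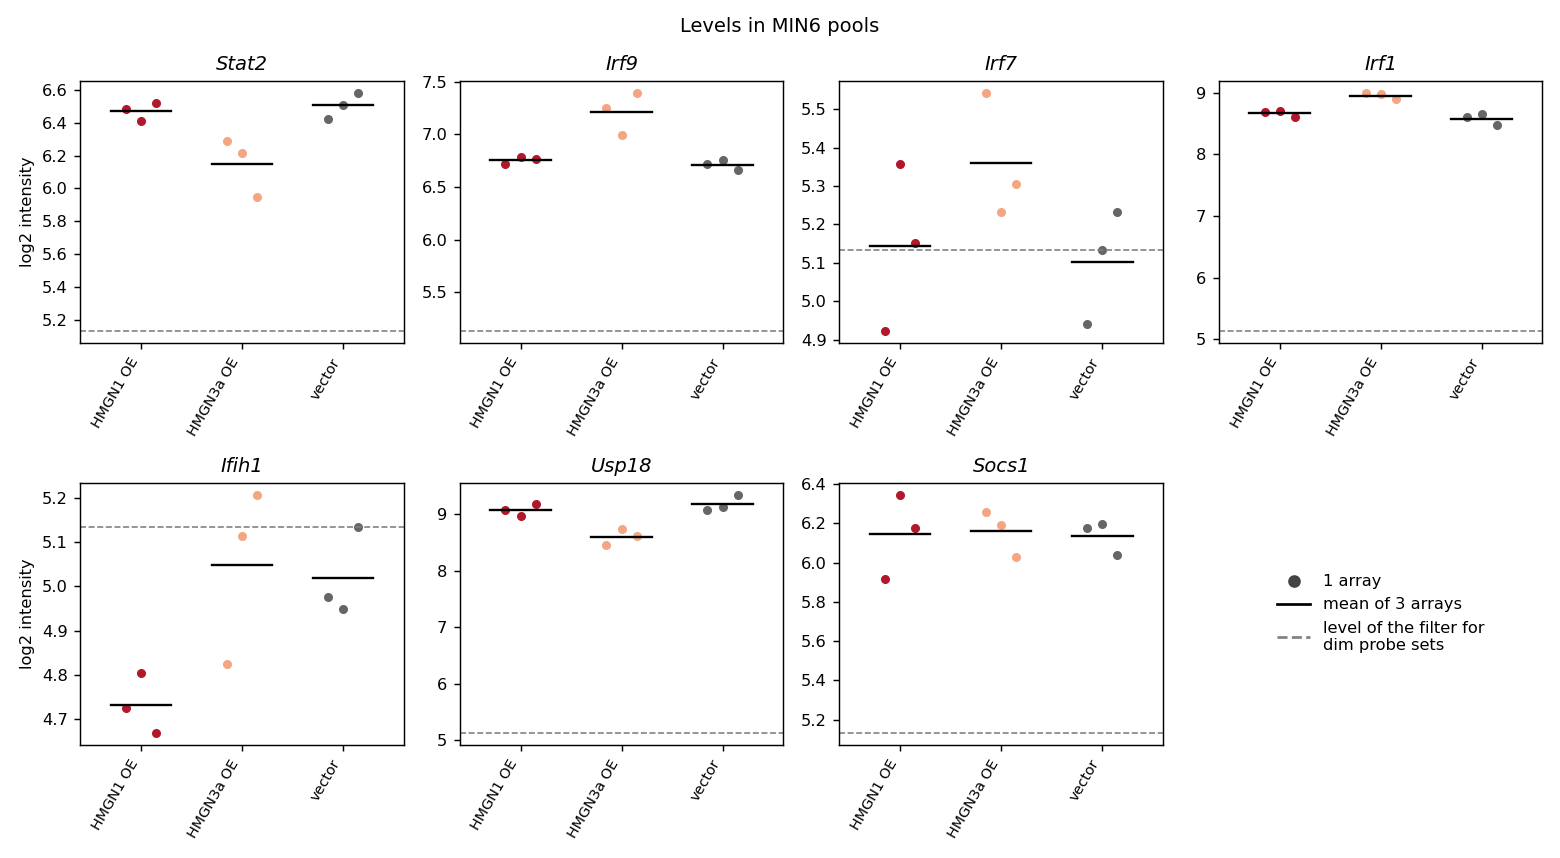
Log2 intensity of the 7 members in the 3 MIN6 groups. Each point is 1 array, black bars are means of 3 arrays, and the dashed line marks the filter level of 5.13. HMGN3a arrays are above the vector arrays for Irf9 and Irf1 and below them for Usp18 and Stat2, and Ifih1 has all its group means below the line.

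Across the 12 comparisons with a control, Irf9 was called in 6, Usp18 in 5, Irf7 and Stat2 in 4 each, Irf1 in 3 and Socs1 in 0, and Ifih1 in 4 of its 10. The order of group means in SV40 MEFs was as follows. For Usp18, Irf7 and Irf9 the HMGN1 pool came first and the HMGN2 pool second, without overlap, whereas for Stat2, Irf1 and Ifih1 the HMGN2 pool came first and overlapped the HMGN1 pool. HMGN5 was last, apart from the next group, for Usp18, Irf7 and Ifih1, and overlapped N3swap for Irf9. The Socs1 means ran from 5.15 with HMGN1 to 5.48 with HMGN3a, with every neighbouring pair overlapping.

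As a description over the 17 group means, each centred on its cell type, Stat2, Irf7, Irf9 and Usp18 correlated with each other at r = 0.90 to 0.96. The Stat2 profile joins its 2 probe sets, 1 in primary MEFs and the other in SV40 MEFs and MIN6 cells. Irf1 followed Stat2 (r = 0.90) more closely than Ifih1 (r = 0.59), and Ifih1 was closest to Usp18 (r = 0.91). Socs1 had r between -0.12 and 0.25 with the other 6. The groups of a cell type share their normalization and their control, so no test is attached. Of 11767 genes tested in all 3 cell types, the non-members most like the mean profile of the members were Parp9, Xaf1, Dtx3l, Ddx58 and Parp14, with r from 0.98 to 0.99. The most similar non-member was Parp14 for Irf7 (0.99), Bst2 for Usp18 (0.99), Trim21 for Stat2 (0.98), Parp9 for Irf9 (0.98), Oasl2 for Ifih1 (0.97), Mx2 for Irf1 (0.95) and Wasf3 for Socs1 (0.74).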

How the data were processed

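What the authors deposited is 1 linear intensity per probe set and array, produced by RMA, as named in the submitters' processing notes, whose version and settings are not given in the sources used here. Biotin-labelled cRNA was hybridized per the labels' protocols. No value column was set aside (0 unused). Intensities were taken to log2 with no further normalization and grouped by the labels.

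Within a cell type, a probe set stayed if at least 1 group averaged no less than the 40th percentile of the group means. A gene was represented by its brightest such probe set with a single symbol, which gave 13674 genes for primary MEFs, 13469 for SV40 MEFs and 13179 for MIN6. Fits used limma 3.58.1 (lmFit and eBayes, a mean per group, all groups of the cell type) under R 4.3.3 with data.table (1.17.8). The 24 comparisons were 12 with a control, 6 between constructs, 3 between WT groups and 3 differences of knock out effects. All p-values are two-sided, with Benjamini-Hochberg adjustment over all genes and a threshold of 0.05. The number of arrays, 3 per group, limits the precision.

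The 8 members, the other gene lists and the marker lists were chosen with earlier results of these data known. All members are named, with up to 3 called genes of a list and the genes most similar by Pearson r. Alternatives tried were to drop the filter, to fit each probe set separately, to repeat quantile normalization, to add a replicate block, to fit the compared groups alone, to leave out each array, and to add as a covariate the index of Y-linked RNA or the Actb difference. The fit was tested on simulated data. Figures were drawn with matplotlib 3.10.9, pandas 2.3.3, numpy 2.4.6 and python 3.11.15.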

Additional observations from a re-analysis of the deposited data

Results flagged for a closer look

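The effects of 2 knock outs differed by the test of the difference itself for 5 results, all in primary MEFs. The HMGN3 effect exceeded the HMGN1 effect by 2.05 ± 0.38 for Usp18, 1.47 ± 0.27 for Ifih1, 1.40 ± 0.21 for Irf7 and 0.93 ± 0.20 for Stat2, on the log2 scale. It exceeded the HMGN5 effect by 1.16 ± 0.21 for Irf7. In both HMGN1 groups Usp18 and Stat2 were near the filter level for dim probe sets.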

How the results depend on the processing

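Across all alternatives, 2024 of 2106 results for single members kept their side of the threshold, 65 lost their call and 17 gained one. Of the results called in either setting, 0 reversed direction. A change of sign in a result called in neither setting was not counted. Quantile normalization again changed the call of 0 of 166. When a fit held no groups but those compared, 2 members were called for N2swap against vector and 0 for the HMGN3 effect minus the HMGN5 effect. Deviations of same-numbered arrays from their group means correlated at -0.34 to 0.38, and the main fit used no pairing. The correlations were 0.20, 0.21 and 0.03 for the HMGN5 knock out and 0.36, 0.16 and 0.08 for HMGN3a in MIN6 cells. For the HMGN3 knock out all were negative (-0.34 to -0.01). With the replicate block 2 members were called for the HMGN3 effect minus the HMGN5 effect, Usp18 being the one gained, and the block changed no other member's call. Leaving out 1 array gave 1 to 3 members called for the HMGN3 knock out, 1 to 2 for N2swap and 1 to 2 for N3swap against vector, 3 to 4 for HMGN2 against HMGN1, 1 to 4 for the HMGN3 effect minus the HMGN1 effect and 0 to 3 for the HMGN3 effect minus the HMGN5 effect. The small Irf1 difference between HMGN2 and HMGN1 was also lost with no filter (adjusted p = 0.0572) and with those groups alone (0.11). Without a filter, or with every probe set fitted, the Stat2 difference between the HMGN3 and HMGN1 effects was lost too (adjusted p = 0.0556 and 0.0558).

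Counts over all genes also moved. With the compared groups alone, 7 genes were called in the HMGN1 knock out (60 with all groups), 141 in the HMGN3 knock out (80), 0 in the HMGN5 knock out (10) and 0 with HMGN3a in SV40 MEFs (4); the differences of effects gave 177 (69) for HMGN3 minus HMGN1, 27 (58) for HMGN3 minus HMGN5 and 9 (22) for HMGN5 minus HMGN1. With the index of Y-linked RNA as a covariate, the counts were 119 in the HMGN1 knock out, 27 in the HMGN5 knock out, 2330 (4306) for HMGN3 WT and 561 (1602) for HMGN5 WT against HMGN1 WT, 277 for HMGN3 minus HMGN1 and 100 for HMGN5 minus HMGN1. Quantile normalization gave 92 in the HMGN1 knock out and 2 with HMGN3a, and the block 6 in the HMGN5 knock out and 2 with HMGN3a. The Actb covariate gave 3698 (6762) for N2swap against HMGN2 and 4 (2) for HMGN5SE. With every probe set fitted, more features were tested. The counts were then 21 in the HMGN5 knock out, 35 for HMGN5 minus HMGN1, 6492 for HMGN3 WT against HMGN1 WT and 6967 (4488) with HMGN3a in MIN6 cells. Against vector in SV40 MEFs they were 10371 (5969) with HMGN2, 8851 (5593) with HMGN5, 4 with HMGN5SE, 8390 (4989) with N2swap and 8497 (5030) with N3swap. Between constructs they were 9639 (5536) for HMGN2 and 10444 (6205) for N2swap and 11524 (6857) for N3swap against HMGN1, 11796 (6636) for HMGN5 and 12420 (6762) for N2swap against HMGN2, and 8959 (5652) for HMGN5SE against HMGN5. Leaving out 1 array gave 18 to 62 in the HMGN1 knock out, 31 to 89 in the HMGN3 knock out, 5 to 23 in the HMGN5 knock out, 1 to 4 with HMGN3a, 39 to 91 with HMGN1 in MIN6 cells (151 with all arrays) and 904 to 1502 for HMGN5 WT against HMGN1 WT. The ranges for the differences of effects were 26 to 74, 16 to 116 and 10 to 144, in the order given above. The cause was not tested. With 3 arrays per group and probe sets near the filter level, small differences in dim genes such as Socs1 in primary MEFs are limited by the signal.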
